A study of Mus musculus with 10 samples.

Results

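The cells described here were mesenchymal cells of the mouse mandible at the embryonic stage E11.5 that held at least 1 UMI, a counted RNA molecule, of *Cited1*, at least 1 UMI of *Hand2* or *Foxf1*, and none of *Barx1*. They numbered 650 of the 5364 mesenchymal cells of that stage, which is 12.1% (exact 95% binomial interval 11.3 to 13.0%), and of the 22619 barcodes in the whole series. Mesenchymal cells were those with at least 700 genes, at most 20% mitochondrial UMIs, a UMI in at least 2 of *Prrx1*, *Twist1*, *Pdgfra* and *Col3a1*, and a UMI in at most 1 of 6 genes of endothelial, immune, muscle and epithelial cells. The *Cited1*, *Hand2*, *Foxf1* and *Barx1* counts are thus the measured values the members were chosen by, and every difference between members and the other 4714 mesenchymal cells is given as a description, with no test.

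The embryos were wild type NMRI mice with no agent or altered allele, and the E11.5 cells came from whole mandibles. Mandibles were dissociated separately and the cells run on the 10x Genomics 3′ platform. Each stage had 1 matrix for all its samples, in which barcodes could not be assigned to the 4 samples labelled as E11.5. Every group of cells below is thus a part of 1 pooled matrix, which was treated as 1 sample. Intervals cover counting error only and say nothing of variation between embryos. The E11.5 matrix held 8708 barcodes and 49264075 UMIs. The members held 5549173 UMIs in all and between 1206 and 36612 per cell, with a median of 6744 UMIs and 2483 genes, against 6124 UMIs and 2270 genes in the other mesenchymal cells. The median mitochondrial share was 3.92% in the members and 3.84% in the others. E11.5 shared 13 barcode sequences with the E14.5 matrix and 17 with the E16.5 matrix.

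The mandible forms from the first pharyngeal arch, whose mesenchyme comes largely from the cranial neural crest and takes its identity along the proximal to distal axis from nested sets of transcription factors. Endothelin and BMP signals act on the distal (ventral) part, where the bHLH factors *Hand2* and *Hand1* are used, while *Dlx1*, *Dlx2* and the COUP factors *Nr2f1* and *Nr2f2* mark more proximal or maxillary mesenchyme. *Barx1* is a homeobox gene of the proximal, molar-forming region, *Foxf1* encodes a forkhead factor that responds to Hedgehog signals from the epithelium, and *Cited1* encodes a co-regulator that binds CBP and p300 and not DNA.

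Among the genes that defined the cells, *Cited1* stood at 336 CPM (UMIs of a gene in a group per 1000000 UMIs of that group, exact 95% Poisson interval 320 to 351) in the members and at 98.7 CPM (95.5 to 102) in the other mesenchymal cells. *Hand2* stood at 361 CPM (346 to 378) and 134 CPM (130 to 138), and *Foxf1* at 46.7 CPM (41.2 to 52.7) and at 13.3 to 15.8 CPM. Background was read from cells of other types. In 106 erythroid, 45 immune and 58 endothelial cells *Cited1* was at 3.05, 2.27 and 4.26 CPM, and 1.89%, 2.22% and 5.17% of these cells had a UMI of it, at median depths of 3742, 7760 and 7467 UMIs. *Hand2* was at 3.05, 4.54 and 4.26 CPM there. *Foxf1* was at 4.57 CPM (0.943 to 13.4) in the erythroid cells, with a UMI in 2.83% of them, and had no UMI in the immune and endothelial cells, where the exact intervals reached 8.38 and 5.24 CPM. Its level in the other mesenchymal cells lay above both of these bounds and at the upper end of the erythroid interval, which rests on 3 UMIs. Of the members with *Foxf1*, 104 held a single UMI of it. *Barx1*, at 415 CPM in the other mesenchymal cells, was at 27.4 CPM in the erythroid cells and had a UMI in 15.1% of them, and the effect of this background on who met the rule, and on which members counted as having *Foxf1*, was not tested.

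*Hand2* was the partner gene in most members. Of the 650 cells, 486 had *Hand2* and no *Foxf1*, 142 had both and 22 had *Foxf1* alone. *Cited1* counts were low per cell, with 1 UMI in 287 members (44.2%), 2 in 129 and 3 or more in 234, up to a maximum of 18. The edge of the rule was wide. Just inside it, 84 members (12.9%) had 1 *Cited1* UMI and 1 UMI of *Hand2* and *Foxf1* together. Just outside it, 691 cells without *Barx1* had a partner gene but no *Cited1* (median 5759 UMIs), 198 had *Cited1* but no partner (median 4588 UMIs), and 765 met the rule except for a *Barx1* UMI (median 9122 UMIs, deeper than the members). Depth thus moved with membership, and its part in who was counted was examined by thinning each cell to 2000 UMIs, after which 277 of 4972 cells met the rule.

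The genes of the rule were also counted against each other, as a description. A *Cited1* UMI was seen in 19.8% (18.3 to 21.3%) of the 2675 mesenchymal cells with neither gene, in 34.9% (27.3 to 43.0%) of the 152 with *Foxf1* alone, in 49.1% (47.0 to 51.3%) of the 2151 with *Hand2* alone and in 79.0% (74.6 to 83.0%) of the 386 with both. At 2000 UMIs per cell the shares were 14.7% (13.5 to 15.9%), 29.3% (21.2 to 38.5%), 29.3% (26.7 to 32.0%) and 46.2% (32.2 to 60.5%). The interval for cells with both genes overlapped that for the 116 thinned cells with *Foxf1* alone, so that no order between these is read from the thinned shares. *Barx1* had a UMI in 63.6%, 65.1%, 48.9% and 51.0% of the same groups of cells before thinning.

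*Hand2* lies at chr8:57320983-57324633 on the plus strand of GRCm38 (mm10). Its long non-coding neighbour *Hand2os1*, annotated at chr8:57281117-57324233 on the minus strand, overlaps it on the opposite strand. *Hand2os1* was not used by the rule and was at 380 CPM (364 to 396) in the members and 134 CPM (130 to 138) in the others, with a UMI in 84.8% of the members. It overlaps a gene the members were chosen by, and against the cells with a partner gene and neither *Barx1* nor *Cited1* (281 CPM) its log2 ratio was 0.42, within 1.5 fold. The gene that was highest by ratio over the other mesenchymal cells was *Plagl1*, which encodes an imprinted zinc finger factor, at chr10:13060504-13131694 on the plus strand. It was at 293 CPM (279 to 307) in the members and 61.7 CPM (59.2 to 64.3) in the others. The RefSeq promoter windows of these 2 genes (GRCm38.p6, plus strand, 250 bases before to 50 after an annotated start, at chr8:57320733-57321032 and chr10:13090582-13090881) are shown because *Hand2* anchors the rule and *Plagl1* heads the genes that were higher. Capitals mark the hexamer CATCTG (searched on both strands, CAGATG in reverse), a form of E-box, the class of site that bHLH factors bind.
Hand2: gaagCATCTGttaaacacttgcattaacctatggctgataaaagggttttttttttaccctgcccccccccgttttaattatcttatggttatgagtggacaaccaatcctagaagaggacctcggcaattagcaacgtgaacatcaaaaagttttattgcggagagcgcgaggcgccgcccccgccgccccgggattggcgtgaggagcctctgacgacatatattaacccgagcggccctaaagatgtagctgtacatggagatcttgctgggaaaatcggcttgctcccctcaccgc
Plagl1: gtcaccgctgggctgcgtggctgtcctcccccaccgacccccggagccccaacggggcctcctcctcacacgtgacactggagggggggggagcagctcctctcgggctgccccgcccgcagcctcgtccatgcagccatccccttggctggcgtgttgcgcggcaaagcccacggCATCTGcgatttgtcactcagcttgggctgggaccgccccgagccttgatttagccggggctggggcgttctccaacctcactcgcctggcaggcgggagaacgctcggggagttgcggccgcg
Each window held 1 match. The hexamer was present in 5635 of the 32851 promoter windows searched (17.2%). Of the 25 leading genes named below, 17 had a window, and 4 of these had the hexamer in any of their windows. The latter counts genes and not windows, so the shares are not alike. A match is a description of these letters and not of a bound site.

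Against the other mesenchymal cells the members carried more RNA of distal arch genes and less of proximal ones. This is fixed in part by the rule, which asks for *Hand2*, a distal gene, or *Foxf1*, and for no *Barx1*, a proximal gene. Against *Cited1*-negative cells that met these other criteria, described below, the median log2 ratio of the distal list was -0.18. Of 5 ranked proximal genes 1 was then higher and none lower, while *Dlx1* and *Dlx2*, not ranked there, were lower. Genes were ranked where 10% or more of the cells in 1 of the groups held a UMI and both groups together held 50 or more. Of the 7152 ranked genes, 91 were 1.5 fold or more higher in the members (1.27%) and 61 were 1.5 fold or more lower (0.853%), where the ratio was taken after adding 10 CPM to each side. These shares are the background against which the lists are set, and the genes of the gate and the rule were left out of them. The median log2 ratio over all 7152 genes was 0.03. Part of the difference rests on the rule's demand for no *Barx1*. With *Barx1* not used, the log2 ratio of *Nr2f1* went from -1.61 to -0.48, that of *Nr2f2* from -1.48 to -0.39 and that of *Pitx1* from -1.65 to -0.41, all within 1.5 fold, and *Gata3* was at 0.45. *Hand1* went from 2.01 to 1.24, *Alx1* from 1.93 to 1.27 and *Shox2* from -2.42 to -1.74, and *Plagl1* was at 2.15.

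**Figure D1:**
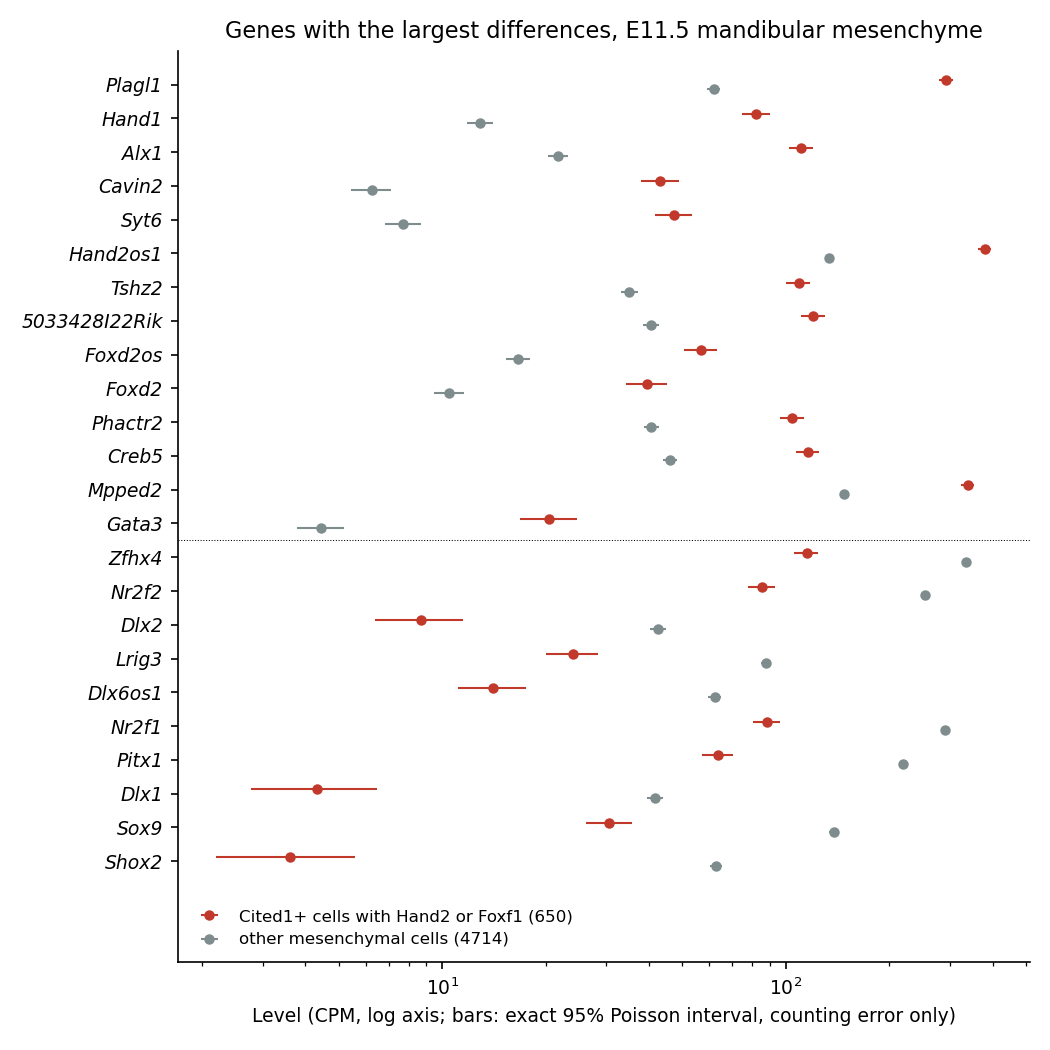
Level in CPM (log axis) of 24 of the 25 genes highest and lowest by ratio, in the 650 members (red) and the 4714 other mesenchymal cells (grey), with exact 95% Poisson intervals. *Plagl1*, at 293 against 61.7 CPM, heads the genes that were higher, and *Shox2*, at 3.60 against 62.6 CPM, is the last of those that were lower.

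After *Plagl1*, the genes highest by ratio were *Hand1* and *Alx1*, both of the list of distal and ventral arch genes. *Hand1*, the close relative of *Hand2*, was at 82.0 CPM (74.6 to 89.9) in the members and 12.9 CPM (11.8 to 14.1) in the others, a log2 ratio of 2.01 (1.87 to 2.14), and it had a UMI in 27.8% of members and 4.77% of the others. *Alx1*, an aristaless-type homeobox gene needed for facial development, was at 111 CPM (102 to 120) in the members and 21.7 CPM (20.3 to 23.3) in the others. *Tshz2* and *Creb5*, which encode a zinc finger factor and a leucine zipper factor, were at 109 and 116 CPM in the members and at 35.1 and 46.0 CPM in the others. *Gata3*, a zinc finger factor, was at 20.5 against 4.44 CPM, but its ratio turned to -0.22 on the log2 scale when the rule was applied to thinned cells. The forkhead gene *Foxd2* (39.5 against 10.5 CPM) and its non-coding neighbour *Foxd2os* (56.6 against 16.6 CPM) were both higher.

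The other leading genes that were higher were not transcription factors of the arch. *Cavin2*, a coat protein of caveolae, was at 43.1 CPM (37.8 to 48.9) in the members and 6.23 CPM (5.44 to 7.09) in the others. *Syt6*, a synaptotagmin, was at 47.2 CPM (41.7 to 53.3) and 7.71 CPM (6.83 to 8.66). *Phactr2*, a regulator of phosphatase and actin, was at 104 against 40.6 CPM, *Mpped2*, a metallophosphoesterase, at 339 against 148 CPM, and the non-coding RNA *5033428I22Rik* at 120 against 40.6 CPM. *5033428I22Rik*, at chr8:57332118-57354580 on the plus strand, lies near *Hand2*, a gene of the rule. Its log2 ratio against cells with a partner gene and neither *Barx1* nor *Cited1* was 0.12. *Phactr2*, at chr10:13207717-13474412 on the minus strand, lies near *Plagl1*. *Cavin2* and *Syt6* each had a UMI in only 20.9% and 24.2% of members, so that neither marked every cell of the group at this depth.

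Genes that were lower included those of proximal and skeletal programmes. *Shox2*, a homeobox gene, was at 3.60 CPM (2.20 to 5.57) in the members and 62.6 CPM (60.1 to 65.2) in the others. *Dlx1* and *Dlx2*, the neighbouring distal-less genes of the proximal arch, were at 4.32 and 8.65 CPM in the members and at 41.6 and 42.5 CPM in the others. *Nr2f1* was at 88.1 against 290 CPM and *Nr2f2* at 85.1 against 255 CPM. *Pitx1*, a homeobox gene of the mandibular arch, was at 63.4 against 220 CPM, and *Sox9*, the regulator of cartilage fate, at 30.6 CPM (26.2 to 35.6) against 138 CPM (134 to 142). *Zfhx4* (115 against 334 CPM), the membrane protein gene *Lrig3* (24.0 against 87.7 CPM) and the non-coding *Dlx6os1* (14.1 against 62.1 CPM) completed the 10.

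**Figure D2:**
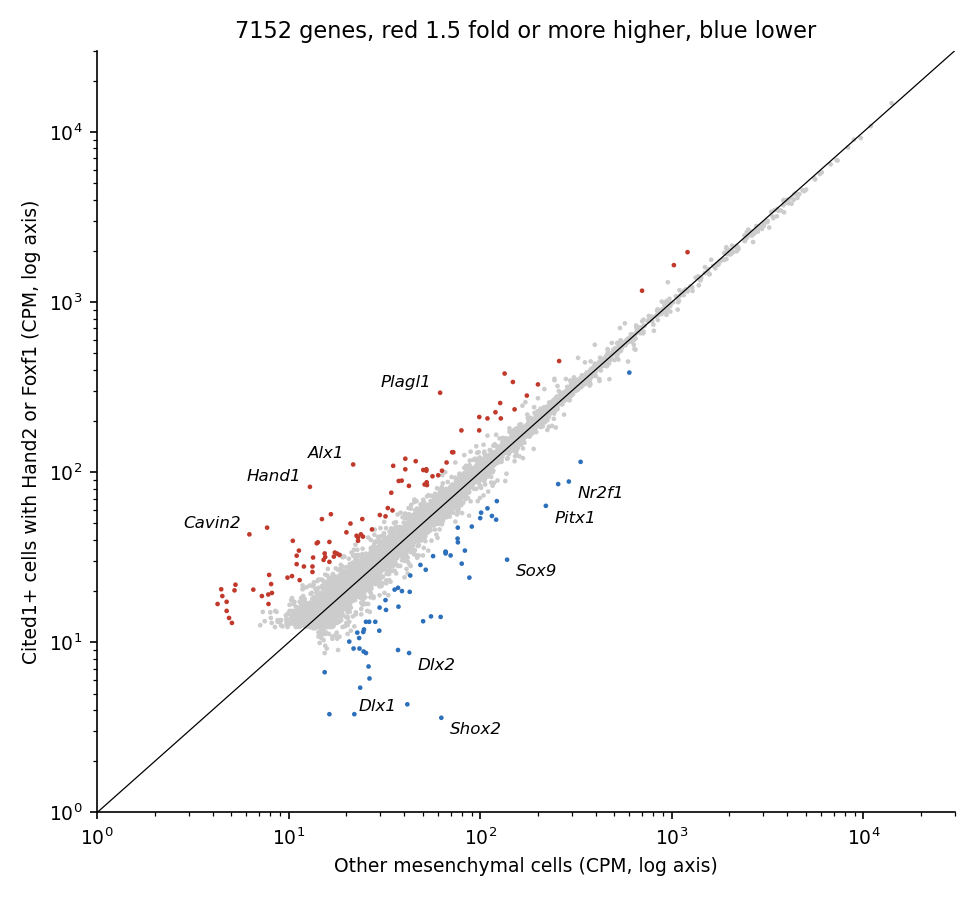
Each point is 1 of the 7152 genes, with its level in the other mesenchymal cells on the x axis and in the members on the y axis (CPM, log axes), and the line marks equal levels. Most genes lie along the line, while the 91 genes in red and the 61 in blue are 1.5 fold or more higher or lower.

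The list of distal and ventral arch genes had 14 members, of which 12 could be ranked. Of these, 7 were 1.5 fold or more higher and 3 were 1.5 fold or more lower, with a median log2 ratio of 0.78. Besides *Hand1* and *Alx1*, the higher genes included *Alx4* (88.8 against 37.5 CPM), *Msx1* (328 against 200 CPM) and *Msx2* (53.0 against 24.2 CPM). The 3 lower genes were *Pitx1* and the paired distal-less genes *Dlx5* (61.3 against 109 CPM) and *Dlx6* (33.9 against 66.1 CPM), which act upstream of *Hand2* in the arch. Of the 8 ranked proximal genes none was higher and 5 were lower, namely *Shox2*, *Dlx1*, *Dlx2*, *Nr2f1* and *Nr2f2*, and the list median was -1.49. The cofactors *Meis2* (470 against 324 CPM) and *Meis1* (36.4 against 30.7 CPM) were within 1.5 fold. Both lists hold genes that earlier results of these data had already shown to differ.

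**Figure D3:**
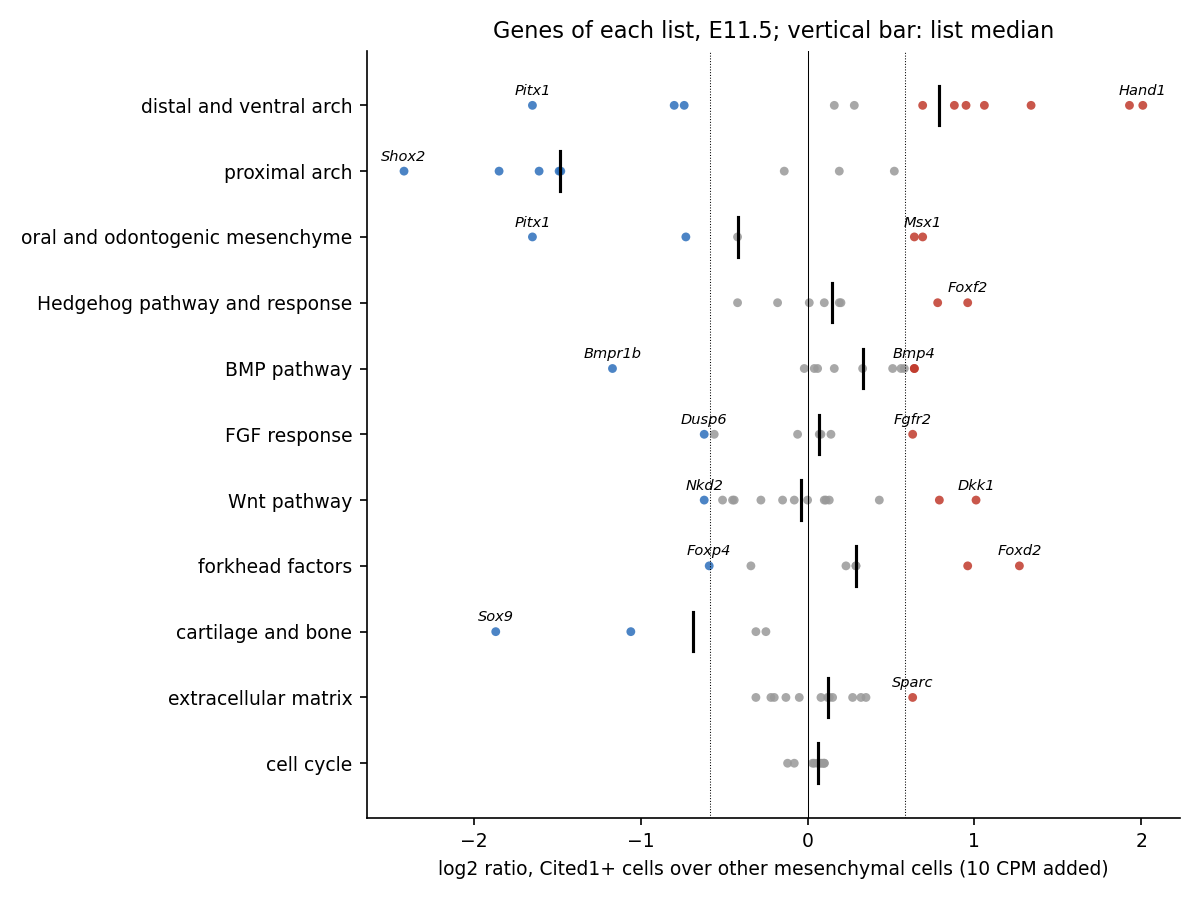
Log2 ratio of members over other mesenchymal cells (10 CPM added) for each ranked gene of 11 lists, with the list median as a vertical bar and 1.5 fold as dotted lines. The distal genes spread from *Pitx1* at -1.65 to *Hand1* at 2.01, the proximal genes reach -2.42 with *Shox2*, and the 10 cell cycle genes lie close to 0.

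The position named in the working label of these cells, aboral, was not shown plainly by the genes measured. *Gsc*, a homeobox gene of the aboral arch, was at 117 CPM (108 to 127) in the members and 104 CPM (100 to 107) in the others, a log2 ratio of 0.16. Of the LIM homeobox genes of the oral side, *Lhx6* was lower, at 13.2 against 28.3 CPM. *Lhx8*, at 57.5 against 80.3 CPM, was within 1.5 fold. *Pax9*, which was below the ranking limit, stood at 8.47 against 20.5 CPM. Other genes of the oral and tooth-forming side went the opposite way, with *Msx1* as above and *Bmp4* at 23.2 against 11.4 CPM. Of the 5 ranked genes of this list 2 were higher and 2 lower, with a median of -0.42. The cells are therefore named here by the genes of the rule.

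Genes of the signals known to act on this mesenchyme differed less than the patterning genes. In the Hedgehog list 2 of 8 ranked genes were higher and none was lower. *Ptch1*, the receptor and a direct target of the pathway, was at 176 CPM (166 to 188) in the members and 98.7 CPM (95.5 to 102) in the others, and the forkhead gene *Foxf2* was at 24.9 against 7.90 CPM, while the target *Gli1* was at 18.2 CPM (14.8 to 22.1) against 14.6 CPM (13.4 to 15.9), with intervals that overlapped. In the BMP list, 2 of 11 ranked genes were higher, the ligand *Bmp4* and the pseudoreceptor *Bambi* (59.6 against 34.8 CPM), and the receptor *Bmpr1b* was lower (6.13 against 26.4 CPM). The BMP targets *Id1*, *Id2*, *Id3* and *Smad7* had log2 ratios of 0.56, 0.51, 0.33 and 0.58, all in the same direction and below 1.5 fold.

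In the Wnt list, *Dkk1*, a secreted inhibitor, was at 32.3 CPM (27.7 to 37.3) against 9.92 to 12.1 CPM and the ligand *Wnt5a* at 131 against 71.3 CPM, while the inhibitor *Nkd2* (11.4 against 22.8 CPM) was the 1 lower gene of 14 ranked. The target *Axin2* was at 70.6 against 99.7 CPM. In the FGF list the receptor *Fgfr2* was higher (25.9 against 13.3 CPM) and the feedback phosphatase *Dusp6* lower (24.7 against 43.1 CPM), with the feedback inhibitor *Spry2* at 9.01 against 18.1 CPM. *Mef2c*, which acts downstream of endothelin signalling, was the 1 of 5 ranked endothelin genes past 1.5 fold, at 33.7 against 17.4 CPM. The receptor *Ednra* was at 83.6 CPM (76.2 to 91.6) and 80.8 CPM (77.9 to 83.8), which was within counting error, and no UMI of the ligand *Edn1*, a product of the epithelium, was seen in either group.

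Of the skeletal genes, 2 were at lower levels than in the other mesenchymal cells, and no proliferation gene was past 1.5 fold. *Col2a1*, the cartilage collagen, was at 52.6 against 121 CPM, and with *Sox9* it made up 2 of 4 ranked cartilage and bone genes that were lower. Against the cells with a partner gene and neither *Barx1* nor *Cited1*, both were within 1.5 fold, with log2 ratios of -0.52 for *Sox9* and -0.21 for *Col2a1*, and 1 of 5 ranked genes of the list was lower. All 10 cell cycle genes were ranked and none was past 1.5 fold, with a median log2 ratio of 0.06 and summed levels of 4076 and 4005 CPM, and the 10 DNA replication genes gave 1271 and 1255 CPM. Of the 13 ranked extracellular matrix genes only *Sparc* was past 1.5 fold, at 84.7 against 51.2 CPM. The 5 ranked retinoic acid genes, the 2 T-box genes, the 5 immediate early and stress genes, and *Cited2*, *Crebbp*, *Ep300* and *Tfap2c* of the list of *Cited1* relatives and partners were all within 1.5 fold. Among 7 ranked bHLH genes *Hand1* alone was past it, and of 7 ranked forkhead genes *Foxd2* and *Foxf2* were higher and *Foxp4* (20.4 against 35.7 CPM) was lower. Of 14 Hox genes, which first arch mesenchyme does not use, the members had 3 UMIs in all, a sum of 0.541 CPM.

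Marker genes of endothelial, immune, muscle, epithelial and glial cells were scarce in the members, while those of erythroid cells were not. Summed over the markers that the gate did not use, the members had 12.1 CPM of 5 endothelial genes, 0.180 CPM of 5 immune genes, 1.26 CPM of 5 muscle genes, 5.41 CPM of 7 epithelial genes and 6.31 CPM of 5 glial genes, against 12.0, 0.357, 2.77, 5.43 and 9.52 CPM in the other mesenchymal cells. The 5 neuronal genes summed to 18.2 CPM in the members, a log2 ratio of 0.73 (0.40 to 1.05) over the others. The 10 smooth muscle and cardiopharyngeal genes summed to 13.7 against 7.24 CPM, and none of them could be ranked. The 9 erythroid genes, mostly embryonic globins, summed to 1856 and 2052 CPM.

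The members were next set against closer groups of cells. The 3048 cells with *Barx1* made up most of the other cells, and against them 109 of 7299 genes were 1.5 fold or more higher (1.49%) and 71 lower (0.973%). The leading genes again included *Hand1* (82.0 against 6.95 CPM), *Alx1* (111 against 13.4 CPM), *Plagl1* and *Cavin2*, and, among those lower, *Shox2* (3.60 against 77.5 CPM), *Dlx1*, *Sox9*, *Pitx1* and *Nr2f1*. The BMP list had 5 of 11 ranked genes higher here, against 2 of 11 in the comparison with all other cells.

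A different picture came from 691 cells that had *Hand2* or *Foxf1* and no *Barx1*, as the members did, but no *Cited1* UMI. Against them 56 of 7120 genes were 1.5 fold or more higher (0.787%) and 35 lower (0.492%). Of 5 ranked proximal genes 1 was higher and none was lower in this comparison. *Shox2* was at 3.60 and 5.14 CPM, *Nr2f2* at 85.1 and 91.7 CPM and *Nr2f1* at 88.1 and 128 CPM, and *Dlx1* (4.32 against 11.7 CPM) and *Dlx2* (8.65 against 20.8 CPM), too rare here to be ranked, were past 1.5 fold lower. Of 12 ranked distal genes 1 was higher and 3 were lower, with a median log2 ratio of -0.18. The lower genes were *Pitx1*, *Dlx5* and *Dlx6*. The higher gene was *Hand1* (82.0 against 41.9 CPM), *Alx1* was at 111 against 71.7 CPM, and *Msx1* was at 328 against 494 CPM, so that the distal list as a whole was not higher in the members than in these cells. Other leading genes that came within 1.5 fold were *5033428I22Rik* (120 against 110 CPM), *Mpped2*, *Gata3*, *Lrig3* and *Sox9*. *Plagl1* remained far higher in the members, at 293 CPM (279 to 307) against 87.1 CPM (79.0 to 95.8), followed by *Foxd2* (39.5 against 8.22 CPM), *Syt6* (47.2 against 11.7 CPM), *Cavin2* (43.1 against 10.3 CPM) and *Ebf2*, which encodes an early B-cell factor family member (34.6 against 8.84 CPM). Of 7 ranked forkhead genes 4 were higher and none was lower. The lower genes were led by the chemokine gene *Cxcl14* (42.0 against 135 CPM), *Tril* (55.3 against 135 CPM), *Gm43376*, the neural crest factor *Pax3* (42.9 against 103 CPM) and the Wnt inhibitor *Apcdd1* (20.9 against 55.3 CPM).

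The 181 further cells with both *Msx1* and *Alx1* and no *Barx1* served as another distal group. Of 7397 genes 104 were 1.5 fold or more higher in the members (1.41%) and 91 lower (1.23%). The forkhead gene *Foxp1* was at 218 CPM (206 to 231) in the members and 52.9 CPM (42.4 to 65.2) in these cells, *Nrk*, a kinase gene, at 103 against 21.9 CPM, and *Osr1*, an odd-skipped factor, at 55.1 against 10.3 CPM. *Cavin2* was at 43.1 against 4.26 CPM, and *Ebf2* had 192 UMIs in the members and 1 in the *Msx1* *Alx1* cells, a log2 ratio of 2.07 (1.71 to 2.16) with 10 CPM added. *Gsc*, which had not separated the members from all other cells, was at 117 against 33.4 CPM. Lower in the members were *Cdh6* (9.01 against 43.2 CPM), *Notum* (3.06 against 22.5 CPM), a secreted inhibitor of Wnt, *AI606473*, *Zeb2* (64.7 against 171 CPM) and *Sema5a* (53.7 against 143 CPM). Of 16 ranked Wnt genes 7 were lower and none was higher, while the oral genes *Lhx8* and *Bmp4* were at 57.5 against 122 CPM and 23.2 against 44.4 CPM. Levels of *Msx1* and *Alx1* themselves, and counts of the lists that hold them, are fixed in part by how these cells were selected and are not given.

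The members were also split by whether a *Foxf1* UMI was seen. Of those with *Foxf1*, 104 held a single UMI of it. How many members with *Hand2* alone had *Foxf1* RNA that was missed was not tested. The 164 members with a *Foxf1* UMI (median 7044 UMIs) differed from the 486 with *Hand2* alone (median 6674 UMIs) in 110 of 7395 genes that were 1.5 fold or more higher (1.49%) and 89 that were lower (1.20%). *Foxd1*, a forkhead gene, was at 219 CPM (196 to 244) in the *Foxf1* members and 47.1 CPM (40.7 to 54.3) in the *Hand2*-alone members, and *Npr3*, the clearance receptor for natriuretic peptides, at 55.6 CPM (44.2 to 69.0) against 7.36 CPM (4.97 to 10.5). *Foxf2* was at 60.3 against 12.0 CPM, *Plxna2*, a semaphorin receptor, at 81.3 against 20.4 CPM and *Osr1* at 117 against 32.9 CPM. *Ptch1* was at 343 against 116 CPM and had a UMI in 78.0% against 45.5% of cells, or 40.1% against 19.8% at 2000 UMIs per cell. *Plagl1* was seen in 92.1% of *Foxf1* members and 55.1% of *Hand2*-alone members, or in 58.6% and 30.6% at 2000 UMIs. *Fendrr*, the non-coding neighbour of *Foxf1*, named after its values were seen, was at 39.3 against 8.59 CPM.

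Other genes, *Msx1* of the distal list among them, were lower in the *Foxf1* members. *Msx1* was at 129 CPM (111 to 148) in them and 401 CPM (381 to 421) in the *Hand2*-alone members, *Pax3* at 12.2 against 54.0 CPM, *Cxcl14* at 10.8 against 53.3 CPM, the BMP antagonist *Nbl1* at 10.8 against 54.5 CPM and *Gm43376* at 4.07 against 32.4 CPM. Of 12 ranked distal genes 7 were lower and 1 was higher. *Hand1* did not separate the 2 groups, at 90.8 and 78.8 CPM, with a UMI in 28.7% and 27.6% of cells. *Alx1* was at 96.9 and 116 CPM, and both values were far above the 21.7 CPM of the other mesenchymal cells. Of 8 ranked forkhead genes 4 were higher in the *Foxf1* members and none was lower. *Prrx1*, a gene of the gate, was at 355 against 830 CPM.

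**Figure D4:**
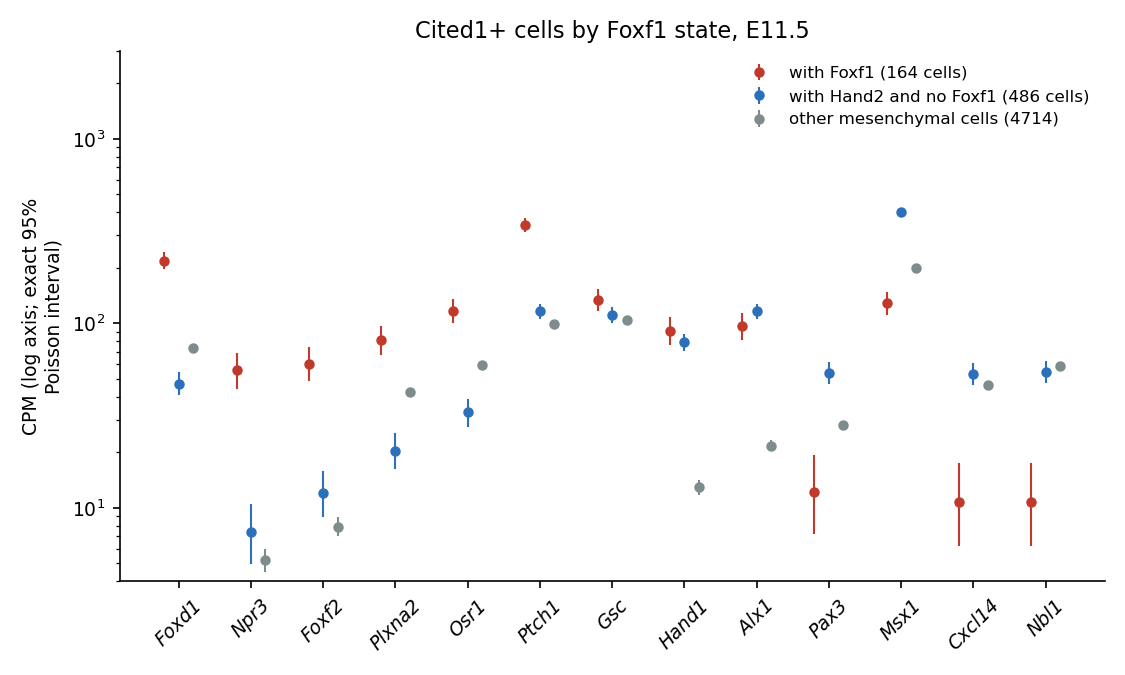
Level in CPM (log axis, exact 95% Poisson intervals) of 13 genes in members with *Foxf1* (red), members with *Hand2* and no *Foxf1* (blue) and the other mesenchymal cells (grey). *Foxd1*, *Npr3*, *Foxf2*, *Plxna2*, *Osr1* and *Ptch1* are highest in red, *Msx1*, *Pax3*, *Cxcl14* and *Nbl1* are lowest in red, and *Hand1* and *Alx1* are above grey in both.

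Erythroid RNA moved with this comparison. The 9 erythroid genes summed to 2997 CPM in the *Foxf1* members and 1442 CPM in the *Hand2*-alone members, and 6 of 7 ranked ones were past 1.5 fold. The difference lay in a few cells. Without the cells with over 5% globin UMIs or at least 2 of 5 muscle genes, 2 of the 164 and 4 of the 486, the 7 globins summed to 973 and 1151 CPM instead of 2987 and 1438 CPM. Over the same cells the log2 ratio of *Npr3* was 1.92 as before, that of *Foxf2* 1.72 in place of 1.67 and that of *Msx1* -1.57 in place of -1.56, and 101 and 88 genes were past 1.5 fold.

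Clusters of the mesenchymal cells, built without the genes of the gate and the rule, showed where the members fell. Of 9 clusters, 3 held 198, 170 and 159 of the 650 members, which made up 26.1% (23.0 to 29.4%), 30.5% (26.7 to 34.5%) and 32.9% (28.7 to 37.2%) of clusters 4, 5 and 7. Cluster 4 was led by *Pax3*, *Msx1*, *Cxcl14*, *Msx2* and *Alx1*, cluster 5 by *Plagl1*, *Foxf1*, *Cited1*, *Itm2a* and *Nrk*, and cluster 7 by *Plagl1*, *Foxd2os*, *Syt6*, *Cited1* and *Cavin2*. The members with *Foxf1* lay mostly in clusters 5 and 7, with 81 and 55 of 164 against 22 in cluster 4, while 176 of the 486 *Hand2*-alone members lay in cluster 4, 89 in cluster 5 and 104 in cluster 7. Cluster 1, led by *Crym*, *Pax9*, *Shox2*, *Zmat4* and *Barx1*, had 7 members in 1037 cells (0.675%). There 92.7% of the cells had a *Barx1* UMI and so could not meet the rule. The same held for 27.0%, 58.9% and 37.4% of the cells of clusters 4, 5 and 7. Clusters 8 and 9, led by muscle genes and globins, were small and had 7 members in 71 cells (9.86%) and 4 in 31 cells (12.9%).

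**Figure D5:**
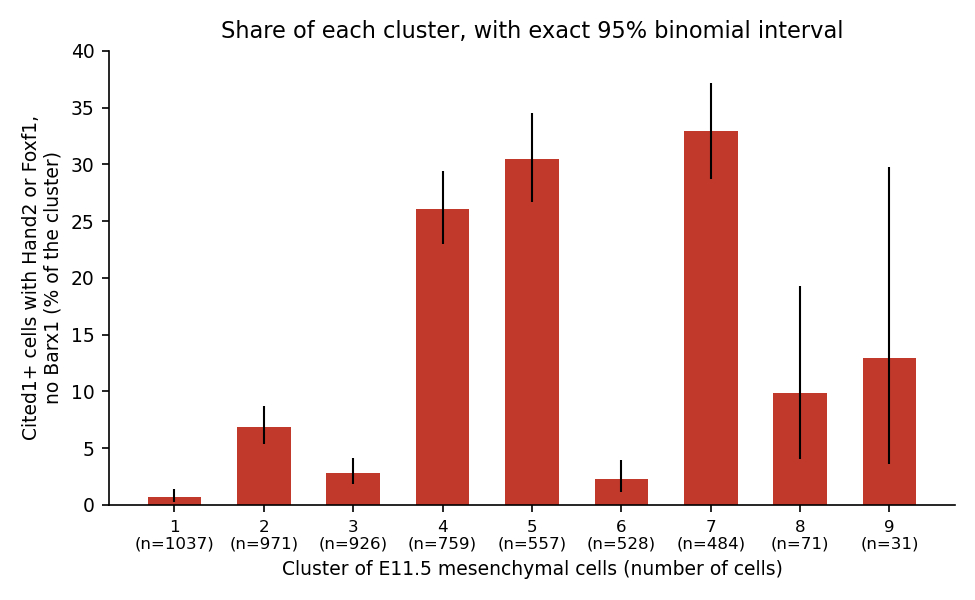
Share of each of 9 clusters of E11.5 mesenchymal cells that met the rule, in percent, with exact 95% binomial intervals and the number of cells under each bar. Clusters 4, 5 and 7 stand at 26.1%, 30.5% and 32.9%, and clusters 1, 3 and 6 below 3%. Cells with a *Barx1* UMI, 92.7%, 66.8% and 40.2% of clusters 1, 3 and 6, could not meet the rule. Cluster 6 had a median of only 1900 UMIs, and the part of depth in its share was not tested.

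At the later stages few cells met the same rule. It took 20 of 4014 mesenchymal cells at E14.5 (0.498%, 0.305 to 0.768%) and 26 of 2406 at E16.5 (1.08%, 0.707 to 1.58%), against 12.1% at E11.5. The mesenchymal cells had medians of 3540 UMIs at E14.5 and 6274 at E16.5, against 6212 at E11.5. Over all mesenchymal cells *Cited1* was at 130 CPM at E11.5, 2.16 CPM at E14.5 and 1.67 CPM at E16.5. Free RNA in the later matrices was not measured, so that how many of the later cells met the rule through it was not tested. *Hand2* did not share this course, at 164, 219 and 294 CPM, nor did *Foxf1*, at 18.7, 36.6 and 87.0 CPM. *Barx1* was at 360, 4.32 and 0.782 CPM. The later samples were incisor buds and not whole mandibles, so that stage, tissue and library cannot be told apart.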

How the data were processed

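The deposited values are UMI counts, 1 matrix per stage over 32285 genes, which the authors made with Cell Ranger 4.0.0 against mm10. They are raw counts, so that depth is the total per cell and group. Counts were summed over the cells of a group, divided by the group's total and given as CPM with exact Poisson intervals. Shares have exact Clopper-Pearson intervals and ratios an exact conditional binomial interval, all at 95% and for counting error only. With 1 matrix per stage no group had replicates and no test was run. The size of 1.5 fold is a limit of size. The members and the gene lists were chosen with earlier results of these data known.

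The named genes are those of the gate and the rule, examples from the lists, and the 15 highest and 10 lowest ratios against the other mesenchymal cells, or the 5 highest and 5 lowest in each further comparison. Erythroid cells had at least 10% globin UMIs, and immune and endothelial cells at least 2 markers. A few genes that the rule names are not reported here. No doublet caller was run. Leaving out the 5% of cells with the most UMIs was an alternative. Clusters came from log-normalized counts, 2000 variable genes, 20 components, 15 neighbours and the Leiden algorithm at 0.4 (leidenalg 0.10.2, igraph 0.11.9, scikit-learn 1.9.0). Other steps used python 3.11.15, numpy 2.4.6 and scipy 1.17.1, and the interval and ratio steps were tested on simulated data. The hexamer marked in the promoters was chosen after the sequences were seen. Gene positions came from GENCODE for GRCm38.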

Additional observations from a re-analysis of the deposited data

How the results depend on the processing

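No paired analysis was possible because the labelled samples of a stage share 1 matrix, with nothing to tell their barcodes apart, and for the same reason leaving out replicates was not run. The 650 members became 363 with at least 2 *Cited1* UMIs, 164 with *Foxf1* as the only partner, 1415 without the *Barx1* criterion and 277 after thinning to 2000 UMIs. The 91 genes higher and 61 lower became 180 and 115 with *Foxf1* as the only partner, 148 and 95 with 1 CPM added, 28 and 16 with 50 CPM added, and 56 and 35 against cells with a partner gene and neither *Barx1* nor *Cited1*, a comparison chosen after seeing the data. Without the *Barx1* criterion 38 genes were lower, and *Nr2f1*, *Nr2f2*, *Pitx1* and *Gata3* came within 1.5 fold. In that comparison with *Cited1*-negative cells *Mpped2* turned to -0.00037 on the log2 scale, *Hand2os1* came to 0.42, *5033428I22Rik* to 0.12 and *Sox9* to -0.52. After thinning *Gata3* turned to -0.22. Among others, *Alx1* then came to 1.20, *Dlx1* to -1.01 and *Nr2f2* to -0.81, each still past 1.5 fold. *Mpped2* came within 1.5 fold with *Foxf1* as the only partner (0.29) and against other cells without *Barx1* (0.49). The cause of these moves was not tested. The share of all members in the cluster that held most of them was 30.5%, and 50% and 25.4% at resolutions of 0.2 and 0.8. Under the other alternatives run (stricter cell filters, a stricter gate, *Hand2* alone, no filter on low genes, mean CPM over cells, depth-matched weights, fewer deep cells, and, added later, globin-rich or muscle-gene cells left out) the counts of members and genes stayed within 1.5 times. Of the 91 and 61 genes, 42 and 16 remained against the *Cited1*-negative cells with a partner gene, and 58 and 38 against other cells without *Barx1*, also added later.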

Other observations

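Several of the most abundant genes that were higher in the members are imprinted, that is, expressed from 1 parental allele, as is *Plagl1*, whose product is known to act on other imprinted genes. A list of 27 imprinted genes was therefore drawn up after these values had been seen, so that it is a description and supports nothing by itself. Of the 24 that could be ranked against the other mesenchymal cells, 12 were 1.5 fold or more higher in the members, none was 1.5 fold or more lower and 21 had a log2 ratio above 0, with a median of 0.57, where 1.27% of all 7152 ranked genes were higher by that size. *Ndn*, of the Prader-Willi region, was at 255 against 127 CPM. *Peg3* was at 1648 against 1025 CPM and its neighbours *Usp29* and *Zim1* at 207 against 128 CPM and 31.7 against 15.5 CPM. *Gnas*, which encodes a G protein subunit, was at 1964 against 1208 CPM. In the *Dlk1* region the ligand gene *Dlk1* was at 450 against 258 CPM and the non-coding *Meg3* and *Rian* at 1166 and 282 CPM against 699 and 175 CPM. These non-coding RNAs adjoin each other, as do *Peg3*, *Usp29* and *Zim1*, so that genes of a region are not separate observations.

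Other imprinted genes did not differ by this size. *H19* was at 788 against 712 CPM, *Cdkn1c*, a cell cycle inhibitor, at 897 against 945 CPM, *Kcnq1ot1* at 595 against 611 CPM and *Nnat* at 530 against 638 CPM. *Igf2* was at 347 against 244 CPM. The comparisons that follow reuse the same list and the same member cells, so they are a description too and add no separate support. Against the cells with a partner gene and neither *Barx1* nor *Cited1*, 13 of 24 ranked genes were 1.5 fold or more higher, where 0.787% of all 7120 ranked genes were, with *H19* (788 against 499 CPM) and *Cdkn1c* (897 against 590 CPM) among them. Within the members the *Foxf1* cells had the higher levels. Of 26 ranked genes 12 were 1.5 fold or more higher in them than in the *Hand2*-alone cells and none lower, where 1.49% of all 7395 ranked genes were higher and 1.20% lower by that size, with *Plagl1* at 531 against 207 CPM, *Peg3* at 2564 against 1316 CPM, *Gnas* at 2976 against 1598 CPM and *Meg3* at 1758 against 951 CPM, while *Nnat* was at 399 against 578 CPM.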
